A study of Mus musculus with 2 samples.

Results

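The GFP-positive cells that held *Otx2* transcripts but none of *Gngt2* were examined here, in retinas of *LHX4::GFP* mouse embryos at E14.5. They were chosen by their own counts: at least 1 unique molecular identifier (UMI, a tag that lets PCR copies of the same molecule be counted as 1) of *Otx2*, 0 UMIs of *Gngt2* and a mitochondrial fraction under 0.25. By this rule 132 of the 3728 cells of the GFP+ library were members, a share of 3.54%, out of 8172 cells in the series. They were set beside the 3128 cells of the same library (83.9%) with at least 1 *Otx2* and at least 3 *Gngt2* UMIs, called comparison cells below. The remaining GFP+ cells were 399 with *Otx2* and 1 or 2 *Gngt2* UMIs and 69 with no *Otx2* UMI. The mice were heterozygous carriers of the transgene Tg(Lhx4::EGFP)KN199Gsat/Mmucd, a bacterial artificial chromosome in which *Lhx4* regulatory sequence drives EGFP, so that every cell in both libraries came from carriers and the gate followed the reporter, not *Otx2* or *Gngt2*. Retinas from 2 litters were pooled and sorted into a GFP+ and a GFP− fraction, and each fraction gave 1 droplet library. In all, 16010591 UMIs were counted in GFP+ cells and 46774961 in the GFP− cells that passed the mitochondrial limit. With 1 library per gate there were no replicates, cells of a library are not replicates of each other, and no test was made. Intervals in brackets are 95% exact intervals that cover counting error only.

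Photoreceptors arise from retinal progenitors that leave the cell cycle and switch on *Otx2*, a homeodomain factor needed for photoreceptor fate, and then its relative *Crx*, which drives photoreceptor genes. In cones the thyroid hormone receptor *Thrb* and the retinoid receptor *Rxrg* follow, and later the genes of the light response. *Gngt2* encodes the gamma subunit of cone transducin, the G protein that couples cone opsins to their phosphodiesterase, with *Gnb3* as the beta and *Gnat2* as the alpha subunit. *Otx2* (ENSMUSG00000021848) lies at chr14:48657677-48673819 on the minus strand and *Gngt2* (ENSMUSG00000038811) at chr11:95837216-95845734 on the plus strand of GRCm38.

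The label of the cells was met in part. Of the 132 members, 110 (83.3%, 75.9 to 89.3%) held at least 1 UMI of *Crx*, against 2947 of 3128 comparison cells (94.2%). In the 28 GFP+ cells with neither *Otx2* nor *Gngt2*, 10 cells (35.7%, 18.6 to 55.9%) held a *Crx* UMI, with 4 UMIs at most, at a median depth of 7759 UMIs. Members had between 1 and 18 *Otx2* UMIs, with a median of 6, and comparison cells had a median of 6 and at most 35. Just inside the rule stood 18 members with 1 and 18 members with 2 *Otx2* UMIs, of which 6 and 11 held *Crx*, while 93 of the 96 members with 3 or more *Otx2* UMIs did. Just outside it stood 155 cells with 1 and 244 cells with 2 *Gngt2* UMIs, of which 142 and 228 held *Crx*. A low *Otx2* count went with a low share of *Crx* in the members, but depth was not matched. The quartiles were 1858.5 and 8277.5 UMIs per cell in members with 1 *Otx2* UMI and 1598 and 5615.5 in those with 2. In members with 3 or more they were 3586 and 6791. The libraries shared 20 cell barcodes, none of them a member, and Scrublet marked 3 of the 3728 GFP+ cells as doublets (0.0805%), none of them a member. With so few calls, doublets were in effect left in, and their part in the values below was not tested.

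The number of UMIs in a cell moved with membership at both ends of the range. Members had a median of 4683 UMIs per cell, from 1019 to 11549 and with quartiles at 3282 and 6890, against a median of 3896 and quartiles at 3438 and 4564 in comparison cells. Among cells with *Otx2*, 15 of 32 cells with under 2000 UMIs lacked *Gngt2* (46.9%, 29.1 to 65.3%). At 3000 to 3999 UMIs 26 of 1653 cells did (1.57%, 1.03 to 2.30%), and at 4000 to 4999 UMIs 19 of 1007 (1.89%, 1.14 to 2.93%). At 7000 or more UMIs the share was again higher, with 33 of 184 cells (17.9%, 12.7 to 24.3%). Among cells that also held *Crx*, 24 of 173 lacked *Gngt2* at that depth (13.9%, 9.10 to 19.9%). Few transcripts were read in a shallow cell, so that a *Gngt2* count of 0 is less informative there. In deep cells the count of 0 was set against a median of 8 *Gngt2* UMIs in cells with *Otx2* and 7000 or more UMIs.

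**Figure D1:**
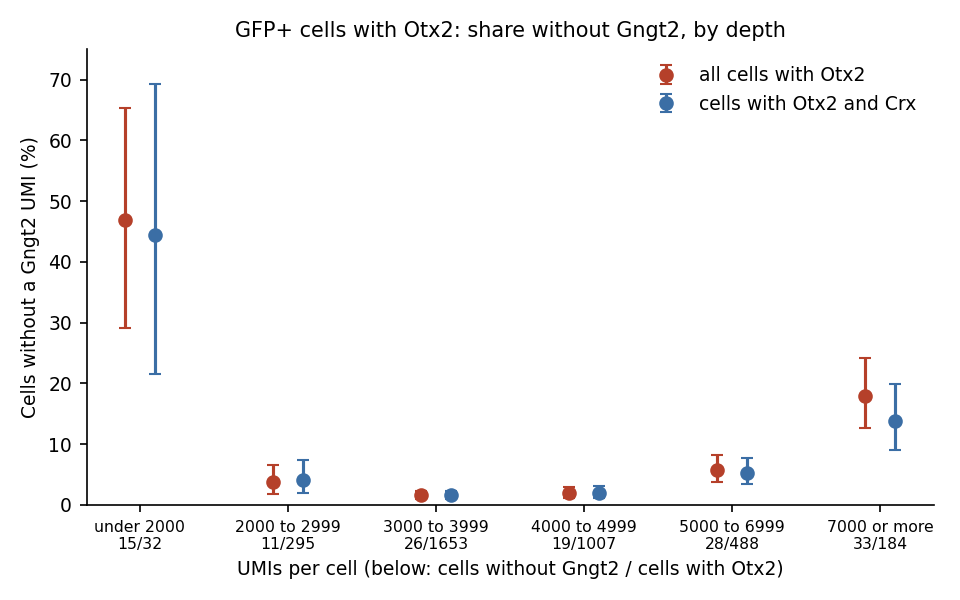
Percentage of GFP+ cells with *Otx2* that held no *Gngt2* UMI (vertical axis) by UMIs per cell (horizontal axis), for all such cells and for those that also held *Crx*, with 95% exact Clopper-Pearson intervals. The share was 46.9% under 2000 UMIs, 1.57% at 3000 to 3999 UMIs and 17.9% at 7000 or more.

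By depth and *Crx* the members fell into unlike cells. Limits of 3000 and 5000 UMIs, chosen after seeing the data, left 26 members under 3000 UMIs, 45 at 3000 to 4999 UMIs and 61 at 5000 UMIs or more. Of the 61 deep members, 49 held *Crx*, with a median of 8 *Otx2* UMIs per cell, and 12 did not, with 1 or 2 *Otx2* UMIs each. Of these 12 cells, 5 held *Ptf1a* or *Tfap2b*, factors of amacrine and horizontal precursors, with 1 *Otx2* UMI each, and the other 7 held 10 or more UMIs of *Ccnd1*, the cyclin D1 of dividing retinal progenitors. No cell of the 12 held both. In them *Thrb* and *Neurod4* were at 0 UMIs, *Pdc* and *Prdm1* at 1 UMI, and *Gnb3* at 2 UMIs. Their list of multipotent progenitor genes reached 6109 CPM (counts per 1000000 UMIs, summed over cells), against 831 CPM in the 49 deep members with *Crx*. Because these 12 cells carried 101646 of the 667851 UMIs of the members, the main levels are also given for cells with 5000 or more UMIs and *Crx*, 49 members with a median of 6844 UMIs against 502 comparison cells with a median of 5973 UMIs. These are called deep *Crx* cells below.

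**Figure D2:**
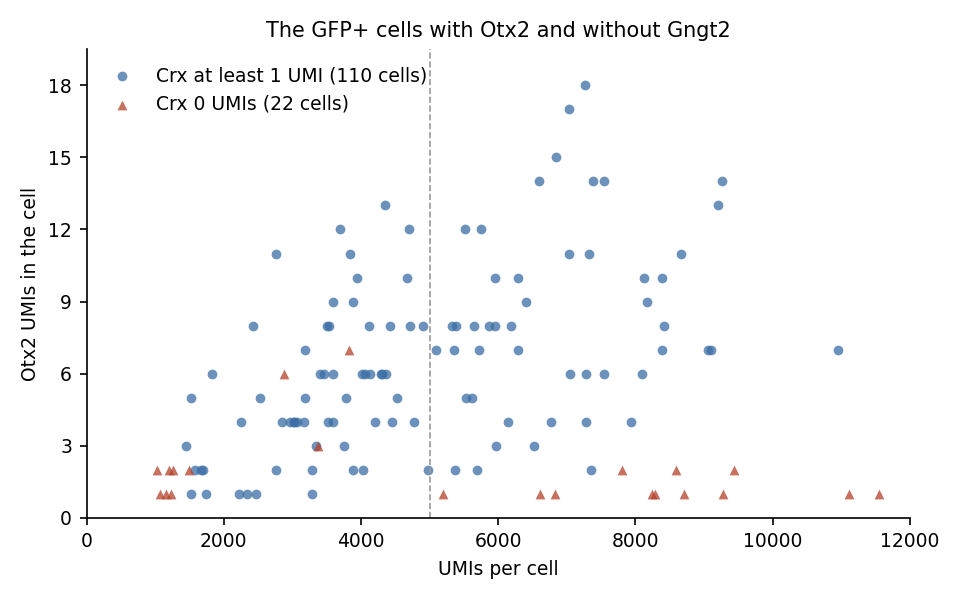
*Otx2* UMIs (vertical axis) against all UMIs (horizontal axis) of the 132 GFP+ cells with *Otx2* and without *Gngt2*, each point 1 cell, with circles for 110 cells with *Crx* and triangles for 22 cells without it. Right of the dashed line at 5000 UMIs, the 12 cells without *Crx* held 1 or 2 *Otx2* UMIs.

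The photoreceptor fate regulators were largely present in the members. Of 15 genes listed, 12 passed the filter of a mean of 20 CPM over both groups. None of them was at least 2-fold higher in members and 1 was at least 2-fold lower, where 1.6% of the 6253 genes tested were at least 2-fold higher and 3.02% at least 2-fold lower. A gene that passed the filter through 1 group alone had to differ, and such genes, 19 higher and 25 lower over all members, are named beside the counts of their lists. *Crx* stood at 749 CPM in members (684 to 817) and 825 CPM in comparison cells (810 to 841), a ratio of 0.907 (0.828 to 0.992). *Neurod1*, a bHLH factor of photoreceptor precursors, stood at 1157 and 1301 CPM, a ratio of 0.890 (0.827 to 0.956). *Prdm1*, the repressor that holds precursors to photoreceptor fate, stood at 283 and 361 CPM, a ratio of 0.784 (0.675 to 0.907). All 3 were thus slightly lower over all members, with intervals below 1. At 3000 to 4999 UMIs, with no selection on *Crx* (45 members against 2380 comparison cells), the intervals spanned equal levels, with ratios of 1.06 for *Crx* (0.895 to 1.24), 1.02 for *Neurod1* (0.887 to 1.16) and 0.870 for *Prdm1* (0.654 to 1.14). With 5000 or more UMIs and no selection on *Crx*, the ratios were 0.844 for *Crx* (0.748 to 0.949), 0.807 for *Neurod1* (0.732 to 0.888) and 0.716 for *Prdm1* (0.584 to 0.869). In deep *Crx* cells, *Neurod1* had a ratio of 1.02 (0.925 to 1.12) and *Prdm1* of 0.922 (0.752 to 1.12). The level of *Crx* itself is not compared there, since both groups were chosen for holding it.

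The cone regulators stood lower over all members and in the deep members, but less so at 3000 to 4999 UMIs. *Thrb* was at 277 CPM in members and 618 CPM in comparison cells, a ratio of 0.448 (0.385 to 0.518). Among deep *Crx* cells it was at 202 and 476 CPM, a ratio of 0.424 (0.328 to 0.540). It was still found in 34 of the 49 deep members, with a median of 1 UMI and at most 5 per cell, and in 435 of the 502 deep comparison cells, with a median of 3 and at most 17. Of the 28 cells with neither *Otx2* nor *Gngt2*, 7.14% held a *Thrb* UMI (0.877 to 23.5%). *Rxrg* was at 149 and 221 CPM in deep *Crx* cells, a ratio of 0.676 (0.499 to 0.898). *Lhx4*, the gene whose regulatory sequence drives the reporter, was at 52.7 and 116 CPM, a ratio of 0.455 (0.267 to 0.730), and whether transcripts of the transgene add to its count was not tested. At 3000 to 4999 UMIs the ratios were 0.811 for *Thrb* (0.653 to 0.995), 0.946 for *Rxrg* (0.683 to 1.28) and 0.924 for *Lhx4* (0.596 to 1.37), so that the last 2 intervals spanned equal levels. Higher in deep members with *Crx* were *Neurod4*, another bHLH factor, at 688 against 484 CPM with a ratio of 1.42 (1.23 to 1.63), and the nuclear receptor *Rorb*, at 858 against 693 CPM with a ratio of 1.24 (1.09 to 1.40). Over all members the ratio of *Neurod4* was 1.11 (0.994 to 1.23) and at 3000 to 4999 UMIs 1.003 (0.798 to 1.24), and both intervals spanned equal levels. Under 3000 UMIs the ratio of *Neurod4* was 1.45 (1.01 to 2.02). *Rorb* had ratios of 1.47 (1.35 to 1.60) over all members and 1.57 (1.34 to 1.84) at 3000 to 4999 UMIs. *Nrl*, the rod-determining factor, was at 38.9 CPM in members and 30.9 CPM in comparison cells, a ratio of 1.26 (0.813 to 1.87).

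The cone phototransduction genes were lower over all members and in the deep members, and less so at 3000 to 4999 UMIs. *Gngt2* was at 2152 CPM in comparison cells and, by the rule, at 0 in members. Of the other genes on the list of 20, 4 passed the filter and all 4 were at least 2-fold lower, with a median log2 ratio of −1.26 against −0.09 over all genes tested. *Gnb3*, its partner in cone transducin, was at 276 CPM in members and 641 CPM in comparison cells, a ratio of 0.430 (0.370 to 0.498). *Pdc*, which encodes the transducin-binding protein phosducin, was at 270 and 763 CPM, a ratio of 0.353 (0.303 to 0.409). *Gnat2* was at 71.9 and 179 CPM and *Cngb3*, a subunit of the cone cyclic nucleotide-gated channel, at 77.9 and 164 CPM. At 3000 to 4999 UMIs, where 3.57% of the 6366 genes tested were at least 2-fold higher and 3.6% at least 2-fold lower, none of these 4 was 2-fold lower. The list had 6 genes tested there, with a median log2 ratio of −0.48, and 1 was at least 2-fold lower, *Pde6c*, a subunit of cone phosphodiesterase, whose call was fixed by the filter. There, *Gnat2*, with a ratio of 0.684 (0.432 to 1.03), and *Cngb3*, with 0.873 (0.573 to 1.27), had intervals that spanned equal levels. The same 4 genes were at least 2-fold lower in deep *Crx* cells, with a median log2 ratio of −1.33, where 5.25% of the 6019 genes tested were at least 2-fold lower and 1.71% at least 2-fold higher. There, *Gnb3* had a ratio of 0.373 (0.279 to 0.489) and *Pdc* of 0.257 (0.184 to 0.349). These genes were lower but not absent: 28 of the 49 deep members held *Gnb3* (57.1%, 42.2 to 71.2%), against 85.5% of deep comparison cells (82.1 to 88.4%). After each cell was thinned to 2000 UMIs the shares were 22.4% and 54.8%. In the 28 cells without *Otx2* and *Gngt2*, 14.3% held a *Gnb3* UMI before thinning (4.03 to 32.7%). *Cnga3* and *Opn1sw*, the cone channel subunit and the short-wavelength opsin, were under 20 CPM in the mean and were at 7.49 and 5.99 CPM in members against 30.4 and 16.0 CPM in comparison cells.

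Many genes of the outer segment and of the photoreceptor synapse were lower over all members too, and less so at 3000 to 4999 UMIs. On the list of outer segment and PDE6 support genes, 6 of 12 tested were at least 2-fold lower and 1 at least 2-fold higher, and in deep *Crx* cells 3 of 10 were lower and 1 higher. The calls of *Aipl1* and *Rd3* over all members, and of *Pcdh15* in deep *Crx* cells, were fixed by the filter. *Rpgrip1*, which encodes a protein of the connecting cilium, was at 169 CPM in members and 489 CPM in comparison cells, a ratio of 0.346 (0.285 to 0.417). *Tulp1* had a ratio of 0.348 (0.259 to 0.459), *Pcdh15*, a cadherin of cilia and synapses, of 0.319 and *Aipl1*, the chaperone of cone phosphodiesterase, of 0.168 (0.0457 to 0.434). The exception was *Rom1*, a disc rim protein, at 44.9 against 20.6 CPM with a ratio of 2.18 (1.44 to 3.19), and of 2.08 (1.25 to 3.31) in deep *Crx* cells. On the synapse list, all 8 genes tested had ratios under 1, with a median log2 ratio of −0.78, and 1 of the 8 was at least 2-fold lower. *Snap25*, a protein of vesicle fusion, was at 267 and 513 CPM, and *Cplx3*, the complexin of photoreceptor ribbons, at 223 and 377 CPM. Members at 3000 to 4999 UMIs had ratios of 0.822 for *Snap25* (0.647 to 1.03), 1.03 for *Cplx3* (0.801 to 1.30) and 0.692 for *Tulp1* (0.462 to 0.996). Of the outer segment genes, 3 of 12 were at least 2-fold lower there, with the call of *Rd3* fixed by the filter. In the same class 1 of the 12 was at least 2-fold higher, *Rom1*, with a ratio of 2.41 (0.953 to 5.09), and 1 of 8 synapse genes was at least 2-fold lower. The rod genes were divided, with 3 of 14 tested and a median log2 ratio of 0.23. *Nrl* and *Reep6*, with ratios of 1.26 (0.813 to 1.87) and 1.16 (0.839 to 1.57), had intervals that spanned equal levels. *Gngt1*, the rod counterpart of *Gngt2*, was at 10.5 and 44.5 CPM, and its 2-fold call was fixed by the filter. In deep *Crx* cells 0 of 2 rod genes tested were past 2-fold, and at 3000 to 4999 UMIs *Reep6* had a ratio of 2.45 (1.54 to 3.72).

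Upstream sequence of 4 of these genes is shown because OTX2 and CRX are known to bind DNA that holds TAATCC. The 250 bases before the start of each RefSeq gene (GRCm38.p6) were searched for TAATCC and for GGATTA, the same letters on the opposite strand. The 2 words can overlap by 2 bases. A gene was counted once over all its windows. Of 27025 genes, 1949 held a match (7.21%). A match was present in 4 of the 12 cone phototransduction genes with a sequence, 3 of 16 outer segment and PDE6 support genes, 3 of 13 fate regulators, 0 of 13 neurogenic progenitor genes and 1 of 13 multipotent progenitor genes. *Crx* held 2 matches. *Gnat2*, *Rpgrip1* and *Nxnl2*, which were all lower in members, held 1 each. So did *Sfrp2*, which was higher over all members. The other 3 phototransduction genes with a match, *Gucy2e*, *Guca1a* and *Gucy2f*, had at most 1 UMI in members and were not tested. Among the 15 lowest and 15 highest genes named further on, 2 of 14 and 1 of 10 with a sequence held a match. *Pdc* and *Rbp4*, which were also lower, held none in these windows. Capitals mark the matches.
Crx, chr7:15879956-15880205, minus strand: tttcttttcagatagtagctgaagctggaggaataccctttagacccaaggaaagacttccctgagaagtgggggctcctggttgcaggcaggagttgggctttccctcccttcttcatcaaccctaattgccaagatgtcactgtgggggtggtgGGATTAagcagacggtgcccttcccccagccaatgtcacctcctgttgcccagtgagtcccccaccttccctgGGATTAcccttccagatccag
Gnat2, chr3:108092816-108093065, plus strand: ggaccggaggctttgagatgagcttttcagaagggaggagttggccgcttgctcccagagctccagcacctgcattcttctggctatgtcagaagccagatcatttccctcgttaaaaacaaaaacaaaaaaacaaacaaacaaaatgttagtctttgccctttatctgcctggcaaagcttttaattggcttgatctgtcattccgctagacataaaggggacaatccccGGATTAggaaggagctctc
Rpgrip1, chr14:52110653-52110902, plus strand: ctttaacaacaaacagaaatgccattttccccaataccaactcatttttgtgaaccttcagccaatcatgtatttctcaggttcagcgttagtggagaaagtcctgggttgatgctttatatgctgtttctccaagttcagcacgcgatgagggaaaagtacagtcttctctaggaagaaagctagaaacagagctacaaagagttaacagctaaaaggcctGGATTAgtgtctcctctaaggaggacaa
Nxnl2, chr13:51170775-51171024, plus strand: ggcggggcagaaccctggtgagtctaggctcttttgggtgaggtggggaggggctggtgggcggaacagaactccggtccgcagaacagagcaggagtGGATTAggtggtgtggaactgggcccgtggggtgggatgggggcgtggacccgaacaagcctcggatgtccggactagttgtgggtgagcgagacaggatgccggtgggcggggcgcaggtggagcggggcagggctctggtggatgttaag

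Genes of neurogenic progenitors, cells at the last division before a neuron is born, were higher over all members as a group. Of 10 genes tested, 9 had ratios over 1 and 3 were at least 2-fold higher, with a median log2 ratio of 0.40, and in deep *Crx* cells again 3 of 10 were, with a median of 0.52. In both cases *Neurog2* is among the 3 and its call was fixed by the filter. *Atoh7*, a bHLH factor switched on as neurons form, was at 151 CPM in members and 52.0 CPM in comparison cells, a ratio of 2.91 (2.34 to 3.59). The deep *Crx* cells had 246 and 93.1 CPM of it, a ratio of 2.64 (2.05 to 3.37). *Gadd45a*, a growth arrest gene, was at 369 and 109 CPM in deep *Crx* cells, a ratio of 3.40 (2.75 to 4.18). *Hes6*, which counters Hes repressors, was at 717 and 427 CPM there, a ratio of 1.68 (1.46 to 1.93). *Neurog2*, a proneural bHLH factor, had 45 UMIs in 7 of the 132 members and 39 UMIs in 22 comparison cells. In deep *Crx* cells its 25 UMIs came from 3 members and 23 of them from 1 cell, so that its ratio of 11.0 (5.97 to 20.5) rested on that cell. The intervals of these genes at 3000 to 4999 UMIs spanned equal levels, with ratios of 1.03 for *Atoh7* (0.410 to 2.14), 0.943 for *Gadd45a* (0.485 to 1.66) and 1.08 for *Hes6* (0.826 to 1.38) and 0 UMIs of *Neurog2* in members. *Btg2*, the most abundant gene of the list over all members, had a ratio of 1.38 (1.15 to 1.63) there and of 1.02 (0.924 to 1.13) over all members. Of 11 genes tested at 3000 to 4999 UMIs, 7 had ratios over 1 and none was past 2-fold, with a median log2 ratio of 0.14. Under 3000 UMIs *Atoh7* had 6 UMIs in members and 16 in comparison cells, a ratio of 4.89 (1.57 to 13.2).

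*Fabp7*, a fatty acid binding protein, was the most abundant gene on the list of cone subpopulation genes and the gene on it that was higher in members. It was at 1015 CPM in members and 390 CPM in comparison cells, a ratio of 2.60 (2.40 to 2.82). The deep *Crx* cells had 1674 and 751 CPM, a ratio of 2.23 (2.03 to 2.44), with medians of 6 and 1 UMIs and highest values of 51 and 136 UMIs per cell. It was found in 42 of the 49 deep members (85.7%, 72.8 to 94.1%) and in 59.6% of deep comparison cells (55.1 to 63.9%), and in 75.5% and 39.8% after thinning. Of the 28 cells without *Otx2* and *Gngt2*, 14.3% held it. *Atoh7* was found in 32 of the 49 deep members and in 194 of the 502 deep comparison cells. A count of 10 or more *Fabp7* UMIs was reached in 18 of 49 deep members (36.7%) and 71 of 502 deep comparison cells (14.1%). The groups overlapped, since *Fabp7* was high in many cells with ample *Gngt2*. The other tested genes of this list, *Slc7a5*, *Pcp4*, *Spint1*, *Aipl1* and *Rd3*, were all at least 2-fold lower over all members, with the calls of *Aipl1* and *Rd3* fixed by the filter. *Pcp4*, a calmodulin-binding protein, had 2 UMIs in the deep *Crx* members, all in 1 cell, against 334 in the deep comparison cells. It had 23 of the members' 25 UMIs at 3000 to 4999 UMIs per cell, at 132 and 122 CPM, a ratio of 1.08 (0.680 to 1.62).

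Multipotent progenitor genes were higher over all members, but as a group not in the deep members with *Crx*. Of 12 genes tested 10 were at least 2-fold higher, with a median log2 ratio of 1.97. The calls of *Hes1*, *Hes5*, *Notch1* and *Zfp36l1* were fixed by the filter. *Ccnd1* was at 243 CPM in members and 30.9 CPM in comparison cells, a ratio of 7.85 (6.51 to 9.44), but 132 of its 162 UMIs lay in the 12 deep members without *Crx*. *Sfrp2*, a secreted modulator of Wnt signalling, had 92 of its 107 UMIs in the same cells, and *Fgf15*, a growth factor of retinal progenitors, 70 of 75. At 3000 to 4999 UMIs none of 5 genes tested was past 2-fold, 4 had ratios over 1, and the median log2 ratio was 0.36. In deep *Crx* cells 1 of 9 was at least 2-fold higher and 3 lower, with the call of *Id3* fixed by the filter. The median log2 ratio of the list in deep *Crx* cells was −0.27. *Ccnd1* was there at 76.1 and 96.4 CPM, a ratio of 0.789 (0.508 to 1.18), with 24 of its 26 member UMIs in 1 cell, and *Fgf15* at 14.6 and 90.4 CPM, a ratio of 0.162 (0.0522 to 0.382). *Vim*, at 205 against 113 CPM with a ratio of 1.82 (1.39 to 2.35), and *Notch1*, with a ratio of 2.65 (1.48 to 4.52), were higher in deep members with *Crx*. On the Notch list, which shares genes with the lists above, 3 of 9 genes tested were at least 2-fold higher over all members, all 3 fixed by the filter, and 1 of 7, *Notch1*, in deep *Crx* cells. *Hes1*, a Notch target that keeps progenitors dividing, had 23 UMIs in members, 22 of them in the 12 deep members without *Crx*.

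Transcripts of the cell cycle lay in part in the 12 deep members without *Crx*. On the S phase list, 1 of 8 genes tested was at least 2-fold higher in members and none lower, with a median log2 ratio of 0.23. On the mitosis list 3 genes passed the filter, *Cenpa*, at 62.9 and 23.6 CPM, *Cenpf*, at 29.9 and 16.0 CPM, and *Ube2c*, whose call was fixed by the filter. *Top2a*, the topoisomerase of dividing cells, had 22 UMIs in 3 members, and *Ube2c*, a ubiquitin-conjugating enzyme of mitosis, had 28 UMIs in 4. Of these, 14 and 23 UMIs lay in deep members without *Crx*. *Mki67* and *Cdk1*, also on the mitosis list, had 6 of 14 and 3 of 6 UMIs there. At least 5 of the 20 mitosis genes were found in 5 members (3.79%, 1.24 to 8.62%) and 9 comparison cells (0.288%, 0.132 to 0.545%). Among deep *Crx* cells the S phase median was −0.20, with none of 8 genes past 2-fold. There, 1 mitosis gene passed the filter, *Cenpa*, at 26.3 and 26.2 CPM. The whole mitosis list summed to 199 CPM in the deep *Crx* members and 131 CPM in the deep comparison cells, from 68 and 434 UMIs. Few cells carried some of these genes. Outside the 12 deep members without *Crx*, the 8 UMIs of *Top2a* lay in 1 member, as did the 5 of *Ube2c* and the 3 of *Cdk1*. The 8 of *Mki67* lay in 5 members.

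Markers of other cells were read for the whole lists. On the amacrine and horizontal list, 3 of 6 genes tested were at least 2-fold higher, of which *Ptf1a* and *Tfap2b* were fixed by the filter, and its summed level was 1774 CPM in members and 1303 CPM in comparison cells. *Meis2*, its most abundant gene, was at 909 and 870 CPM and is also present in cones. *Ptf1a* had 34 UMIs in 5 members and 14 UMIs in 6 comparison cells, a ratio of 48.0 (25.1 to 96.9), and *Tfap2b* 28 and 23 UMIs. All of these members were deep cells without *Crx*. On the ganglion cell list 2 of 6 genes tested, *Gap43* and *Stmn2*, were at least 2-fold higher and 1 lower over all members, with summed levels of 976 and 776 CPM and *Stmn2* as the most abundant gene. In the deep cells with *Crx* 0 were higher and 2 lower, *Elavl4* and *Rbfox3*, both fixed by the filter, with summed levels of 978 and 839 CPM. Its defining marker *Pou4f2* had 0 UMIs in members and 10 in comparison cells, too few to compare. The 2 bipolar genes tested had ratios under 1 and 1 was at least 2-fold lower, with summed levels of 79.4 and 164 CPM and *Lhx3* and *Pcp2* tied as the most abundant in members, at 28.4 CPM each, against 44.5 and 93.8 CPM in comparison cells. The lists of the pigment epithelium (5.99 and 12.8 CPM, led by *Dct*), blood (2.99 and 1.51 CPM, led by *Hba-a1*) and lens (2.99 and 6.28 CPM, led by *Cryba1*) had no gene tested and 11 of 14, 6 of 7 and 8 of 9 genes at 0 in members. Of 8 microglial genes 6 were at 0 in members and 1 was tested, *C1qa*, the most abundant, at 16.5 and 28.8 CPM. Vessel and mesenchyme genes reached 24.0 and 11.5 CPM, with 8 of 11 genes at 0 in members. Of the members' 16 UMIs for this list 12 were of the endothelial gene *Pecam1*, in 3 members and 10 of them in 1 cell.

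Genes of young neurons were divided. Of 18 tested, 4 were at least 2-fold higher in members and 2 lower, and in deep *Crx* cells 1 was higher and 3 lower, with the call of *Elavl2* fixed by the filter. *Tubb3*, a neuronal tubulin, was at 1159 and 638 CPM in deep *Crx* cells, a ratio of 1.82 (1.63 to 2.02). *Stmn2*, a regulator of microtubules in growing neurites, was at 720 and 387 CPM, a ratio of 1.86 (1.62 to 2.13), and *Elavl3*, a neuronal RNA-binding protein, at 190 and 81.1 CPM, a ratio of 2.35 (1.76 to 3.09). Other genes of the same list stood lower in deep members. *Ina*, a neurofilament protein, was at 35.1 and 200 CPM, a ratio of 0.176 (0.0904 to 0.309), *Elavl2* at 5.85 and 87.4 CPM, and the cell cycle inhibitor *Cdkn1c* at 73.2 and 308 CPM, a ratio of 0.238 (0.153 to 0.353). The ratios at 3000 to 4999 UMIs were 1.07 for *Ina* (0.772 to 1.46), 0.726 for *Elavl2* (0.469 to 1.08) and 0.674 for *Cdkn1c* (0.510 to 0.875), and 1.16 for *Tubb3* (0.911 to 1.45), 1.47 for *Stmn2* (1.13 to 1.89) and 2.06 for *Elavl3* (1.05 to 3.65). The share of UMIs from ribosomal protein genes was also higher, with a median of 19.0% in members and 16.6% in comparison cells, and of 21.6% and 18.3% in deep *Crx* cells. The mitochondrial share was 2.62% and 2.45%.

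Genes of the ATF4 stress response, which serves amino acid supply, were lower in the deep members but not at 3000 to 4999 UMIs. Of 11 tested, 3 were at least 2-fold lower over all members and 7 in deep *Crx* cells, where the calls of *Aldh18a1*, *Phgdh*, *Shmt2* and *Slc7a5* were fixed by the filter. *Slc7a5*, an amino acid transporter, was at 2.93 and 45.2 CPM there, with 1 UMI in the members, a ratio of 0.0648 (0.00163 to 0.366). *Asns*, asparagine synthetase, was at 17.6 and 64.5 CPM, a ratio of 0.272 (0.0989 to 0.603). Members at 3000 to 4999 UMIs had 2 of 13 genes at least 2-fold higher and 0 lower, with summed levels of 813 and 760 CPM, and the ratios of *Slc7a5*, at 0.781 (0.312 to 1.62), and *Asns*, at 0.956 (0.492 to 1.68), had intervals that spanned equal levels. Among immediate early and heat shock genes, 1 of 11, *Ier3*, was at least 2-fold lower, and *Hspa8*, the most abundant, was at 1503 and 1587 CPM. None of the 4 apoptosis genes tested was past 2-fold over all members, which is near the background shares of 1.6% and 3.02%. In deep *Crx* cells 1 of 5 apoptosis genes and 2 of 11 immediate early and heat shock genes were at least 2-fold lower. The share over all genes tested there was 5.25%.

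Over all genes, on the lists or not, those with the most extreme ratios were named by the bound of the interval that lay nearest to 1. Among the 15 highest were *Ptf1a*, *Neurog2*, *Ccnd1*, *Dapl1*, *Miat*, *Igfbp2*, *Sfrp2*, *Crabp2*, *Rassf4*, *Fgf15*, *Eno1*, *Rtn1*, *Lgals1* and *Elavl3*. To be named, a gene needed at least 50 CPM in 1 group, so that a low level in the other fixed a 2-fold difference. This held over all members for *Ptf1a*, *Neurog2*, *Dapl1*, *Miat*, *Igfbp2*, *Crabp2*, *Rassf4*, *Fgf15* and *Lgals1*, with at most 24.4 CPM in comparison cells. The ratios of 7 of the 15 are given for both sets of cells, and each was smaller in deep *Crx* cells. *Miat*, a long noncoding RNA, had a ratio of 6.36 (4.61 to 8.67) over all members and of 3.21 (2.12 to 4.74) in deep *Crx* cells, with UMIs in 22 of 49 members and 85 of 502 comparison cells there. *Rassf4*, a Ras association domain protein, went from 4.81 (3.67 to 6.24) to 3.13 (2.19 to 4.38) and *Igfbp2* from 5.97 (4.18 to 8.39) to 2.66 (1.54 to 4.41). *Lgals1*, which encodes galectin-1, went from 4.53 (3.23 to 6.25) to 2.54 (1.69 to 3.73) and *Rtn1*, a reticulon, from 4.08 (3.39 to 4.89) to 2.41 (1.85 to 3.09). *Dapl1* went from 6.27 (4.91 to 7.96) to 1.83 (1.30 to 2.52) and *Eno1*, the glycolytic enolase, from 3.85 (3.44 to 4.30) to 1.79 (1.51 to 2.11). *Eno1* has near-identical copies in the genome, so that its count is uncertain. *Crabp2*, a retinoic acid binding protein, had a ratio of 0.883 (0.370 to 1.82) in deep *Crx* cells, an interval that spanned equal levels. At 3000 to 4999 UMIs 3 of the 15 highest genes had intervals above 1 and 12 had intervals that spanned equal levels. The members of that class and the deep members were part of the choice of the 15 genes, so that these values are a description.

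The 15 lowest were *Ffar4*, *Tmem215*, *Nxnl2*, *Slc17a6*, *Dnaic1*, *Rbp4*, *Pgc*, *Pdc*, *Clstn1*, *Xlr3b*, *Rpgrip1*, *Klhl5*, *C1ql3*, *Lypd1* and *Nfib*. For *Ffar4*, *Xlr3b* and *Klhl5* a 2-fold difference over all members was fixed by the filter, which they passed through the comparison cells alone. The deep *Crx* members held 341629 of the 667851 UMIs on which the 15 genes were chosen, so that their low values there are a description. At 3000 to 4999 UMIs 10 of the 15 had intervals below 1, and those of *Rbp4*, *Pgc*, *Klhl5*, *C1ql3* and *Nfib* spanned equal levels. The members of that class held 174716 of the same UMIs, so that this count too is a description. *Rbp4* (ENSMUSG00000024990, chr19:38116629-38125281, minus strand), the carrier protein of retinol, differed most of these genes in deep *Crx* cells. *Rbp4* had 1 UMI in the 49 deep members and 807 UMIs in 265 of the 502 deep comparison cells, a ratio of 0.0120 (0.000304 to 0.0673). *Ffar4* (ENSMUSG00000054200, chr19:38097071-38114263, plus strand), a receptor for long-chain fatty acids, is its neighbour in the genome and had 1 UMI against 181. *Pgc*, the aspartic protease precursor pepsinogen C, was found in 3 of 49 deep members and 269 of 502 deep comparison cells, at 14.6 and 207 CPM, a ratio of 0.0708 (0.0229 to 0.166). *Lypd1*, a Ly6 family protein, was found in 11 of 49 deep members, with a median of 0 and at most 14 UMIs, and in 379 of 502 deep comparison cells, with a median of 3 and at most 30. *Slc17a6*, the vesicular glutamate transporter VGLUT2, was at 14.6 and 113 CPM, a ratio of 0.130 (0.0419 to 0.306). *Nxnl2*, a thioredoxin-like protein of photoreceptors, was at 20.5 and 126 CPM, a ratio of 0.162 (0.0647 to 0.337), and *Nfib*, a nuclear factor I protein, at 17.6 and 137 CPM, a ratio of 0.128 (0.0468 to 0.281). *Xlr3b* belongs to a family of near-identical genes, so that its count is uncertain.

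**Figure D3:**
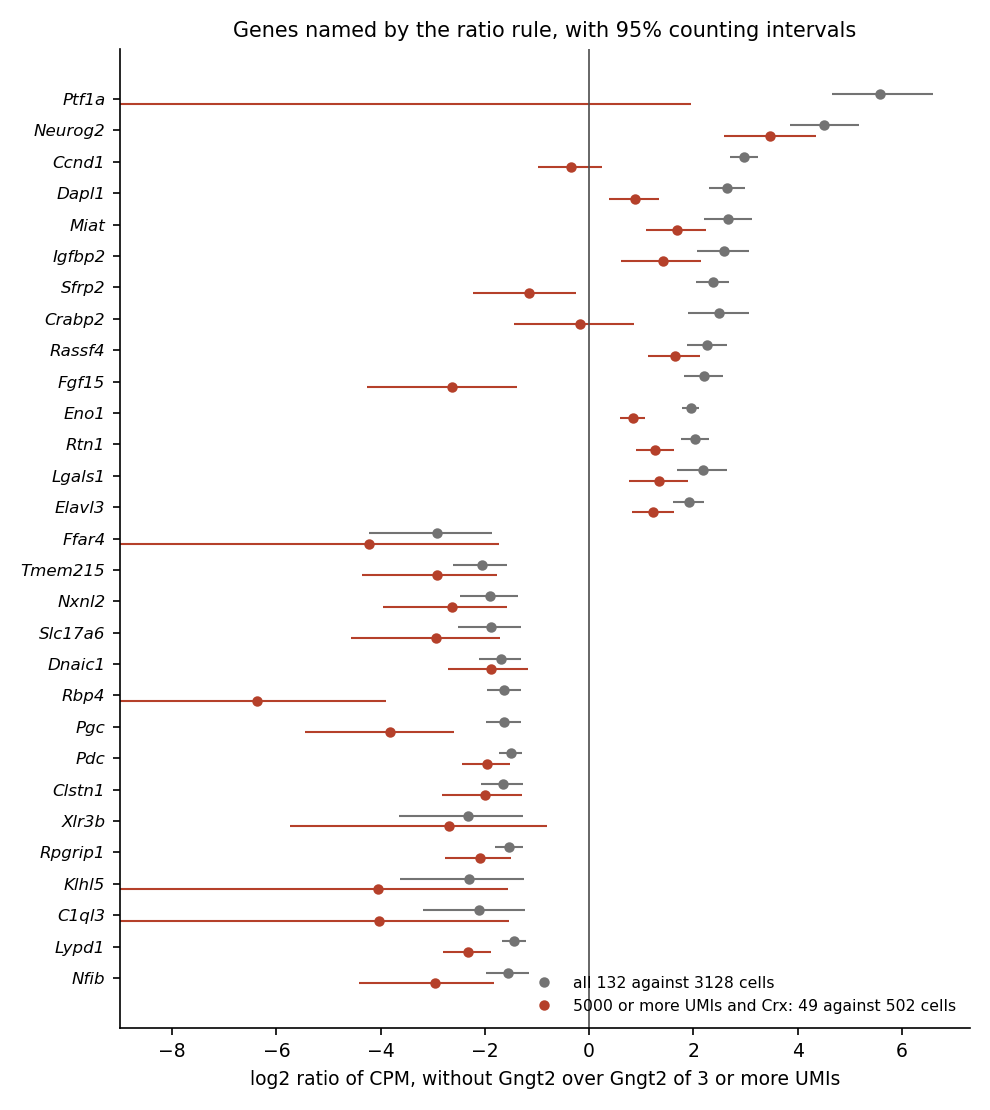
Log2 ratio of CPM in cells without *Gngt2* over comparison cells (horizontal axis) for 14 of the 15 highest and all 15 lowest genes (vertical axis), with points for the ratio and lines for 95% counting intervals, in grey for all cells (132 against 3128) and in red for deep *Crx* cells (49 against 502). Lines that reach the left edge run past it, and *Ptf1a* has no red point because it had 0 UMIs in the 49 members. *Ccnd1*, *Sfrp2*, *Fgf15* and *Crabp2* lie above 0 in grey and below 0 in red, while all 15 lowest genes lie below 0 in both.

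Members at 3000 to 4999 UMIs were closer to comparison cells of their own depth than the deep members were for several of these genes. At 3000 to 4999 UMIs, 45 members and 2380 comparison cells had ratios with intervals that spanned equal levels for *Rbp4* (0.801, 0.608 to 1.04) and *Pgc* (0.983, 0.757 to 1.26). *Pdc* was lower in these members, at 532 and 843 CPM with a ratio of 0.631 (0.509 to 0.774), as were *Gnb3*, with 0.734 (0.590 to 0.904), and *Rpgrip1*, with 0.722 (0.560 to 0.917). *Rorb*, with a ratio of 1.57 (1.34 to 1.84), and *Fabp7*, with 1.71 (1.35 to 2.13), were higher. Under 3000 UMIs, 26 members had a median of 1718 UMIs and 239 comparison cells a median of 2810 UMIs, so that depth was not matched. *Gnb3* in this class was at 762 and 900 CPM, a ratio of 0.847 (0.594 to 1.18), and *Pdc* at 882 and 1076 CPM, a ratio of 0.820 (0.590 to 1.11). *Fabp7* was at 381 and 160 CPM there, a ratio of 2.38 (1.38 to 3.91). *Pgc*, in contrast, had 4 UMIs in these members and 355 in the comparison cells, a ratio of 0.147 (0.0398 to 0.380). *Rbp4* had a ratio there of 0.939 (0.548 to 1.52). The ratio of *Fabp7* was thus over 1 in each of the 3 depth classes. *Rbp4* was lower in the deep members, and its interval spanned equal levels in the other 2 classes, while *Pgc* was lower under 3000 UMIs and in the deep members but not in between.

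Deep *Crx* cells were also divided by the number of *Gngt2* UMIs in the cell, with 49 cells at 0, 98 at 1 or 2, 116 at 3 to 5, 123 at 6 to 9 and 263 at 10 or more. *Fabp7* was at 1674, 1421, 952, 954 and 579 CPM in that order. *Atoh7* was at 246, 181, 140, 112 and 65.3 CPM, and *Gadd45a* at 369, 266, 137, 141 and 82.6 CPM. In the other direction, *Thrb* was at 202, 319, 414, 404 and 534 CPM, *Gnb3* at 158, 225, 281, 386 and 500.4 CPM and *Pdc* at 123, 253, 351, 394 and 570 CPM. *Rbp4* was at 2.93, 50.3, 147, 180 and 311 CPM. Between 3 to 5 and 6 to 9 UMIs the values of *Fabp7*, *Gadd45a* and *Thrb* broke the order of the other classes. *Neurod1* ranged from 1261 to 1346 CPM and *Crx* from 802 to 942 CPM, and since every cell here was chosen for holding *Crx*, the range of *Crx* is in part set by that choice. Cells with 1 or 2 *Gngt2* UMIs, which the rule left out, therefore lay between the members and the comparison cells for *Fabp7*, *Atoh7*, *Gadd45a*, *Thrb*, *Gnb3*, *Pdc* and *Rbp4*. Median depths were 6844, 6167, 5851, 5623 and 6142 UMIs, so that the classes differed in depth as well.

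**Figure D4:**
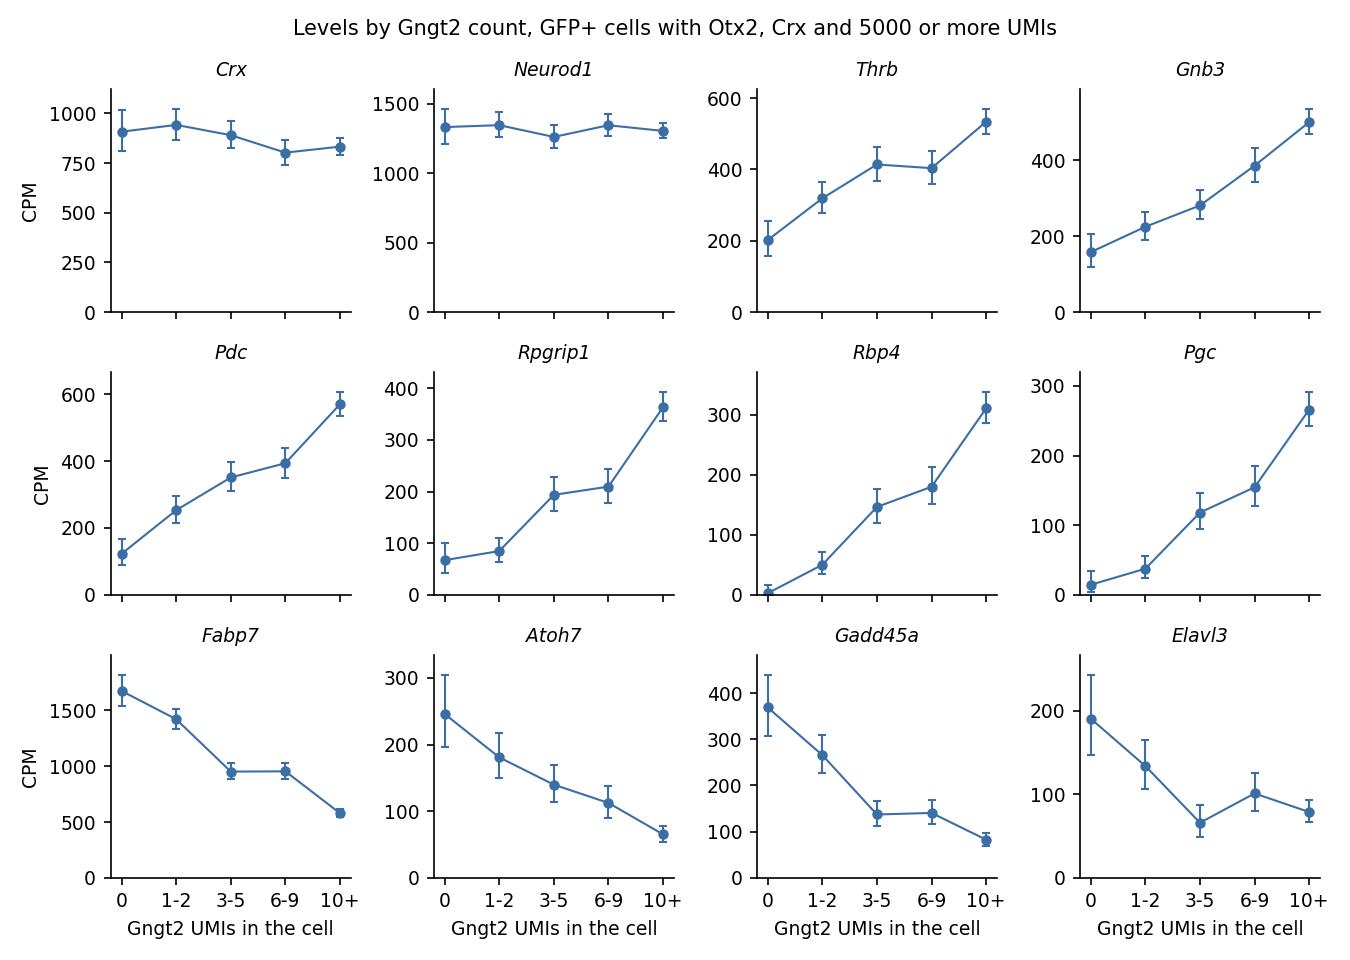
CPM (vertical axes, from 0) of 12 genes in GFP+ cells with *Otx2*, *Crx* and 5000 or more UMIs, by *Gngt2* UMIs in the cell (horizontal axis: 0, 1 to 2, 3 to 5, 6 to 9, and 10 or more), with 95% exact Poisson intervals. *Thrb* lay between 202 and 534 CPM and *Fabp7* between 1674 and 579 CPM from the first to the last class. All cells plotted were chosen for holding *Crx*, so that its own panel is in part set by that choice.

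In the GFP− library, 686 cells held *Otx2* and no *Gngt2*, of which 102 held *Crx*. Of these, 92 cells with 3 or more *Otx2* UMIs and *Crx* had a median depth of 7044 UMIs, close to the 6844 UMIs of the deep GFP+ members, though they were not held to 5000 UMIs. The deep GFP+ members with *Crx*, in turn, were not held to 3 *Otx2* UMIs. Side by side, the GFP− cells and the deep GFP+ members had *Atoh7* at 380 and 246 CPM, *Neurog2* at 476 and 73.2 CPM, *Gadd45a* at 1170 and 369 CPM, *Thrb* at 73.4 and 202 CPM, *Rxrg* at 24.5 and 149 CPM, *Gnb3* at 36.0 and 158 CPM and *Fabp7* at 472 and 1674 CPM. These values come from different libraries, 1 per gate, and the difference between the gates was not tested. As given above, the *Neurog2* level of the deep GFP+ members rested largely on 1 cell.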

How the data were processed

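Cells of 1 GFP+ and 1 GFP− droplet library (10x Chromium 3′ v2) were read. Per the labels, reads were processed by the authors in Cell Ranger 2.1.1 against mm10 (GRCm38), and whole-number UMI counts for each gene in each cell were deposited without normalization. Cells with a mitochondrial fraction under 0.25 were kept, which removed 1 GFP− cell. Members and comparison cells were taken by raw counts of *Otx2* and *Gngt2*. UMIs were summed over cells and divided by all UMIs (CPM, with exact Poisson intervals); ratios had exact conditional intervals and shares exact Clopper-Pearson intervals. A gene was tested for size where the mean CPM of both groups was at least 20, with 0.5 UMIs added to both sums; *Otx2* and *Gngt2* were left out. Genes past 2-fold were counted with no p-value. The genes named were the members of 23 lists and the 15 highest and 15 lowest by the interval bound nearest to 1, with at least 50 CPM in 1 group and UMIs in at least 5 cells of the higher group, leaving out mitochondrial and ribosomal protein genes; 1 of the 15 highest is not reported here. The members and lists were chosen with earlier results of these data known. Cells were thinned to 2000 UMIs to compare shares. Doublets were called with Scrublet (scanpy 1.11.5, expected rate 0.03). Python 3.11.15, numpy 2.4.6, scipy 1.17.1, pandas 2.3.3 and, for TMM factors, edgeR 4.0.16 were used. The intervals were checked only on simulated Poisson counts, which they assume. That setting leaves out the clumping of UMIs in single cells. With 1 library per gate, precision is that of counting alone.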

Additional observations from a re-analysis of the deposited data

How the results depend on the processing

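The counts of genes past 2-fold were recomputed under 22 alternatives, the share of cells without *Gngt2* under the 12 that bear on it, the mitosis median under 19 and the other medians under 21. Of the alternatives 4 were chosen after seeing the data (*Crx* in both groups, 5000 UMIs, both together, and 3 *Otx2* UMIs). The median log2 ratio of the cone phototransduction genes, −1.26 in all cells, stayed below 0 throughout. It was −1.02 without cells with 3 or more cycle genes, −1.03 with *Crx*, −1.68 from 5000 UMIs, −0.65 when the rule was applied to thinned cells, −1.02 with comparison cells standardised to the members' depth, −0.94 for per-cell means and −1.06 with no filter on genes. The multipotent progenitor median of 1.97 was 1.16 with 2 *Otx2* UMIs, 2.73 with 250 to 3500 genes, 0.73 without cycling cells, 0.56 with *Crx*, 1.03 from 5000 UMIs, 0.56 with 3 *Otx2* UMIs, 1.20 in thinned cells, 1.02 when the rule was applied to thinned cells and 0.96 when standardised. It was reversed, at −0.27, with 5000 UMIs and *Crx*. The mitosis median of 1.43 was 0.53 with 2 and 0.40 with 3 *Otx2* UMIs, 0.34 with *Crx*, 0.077 with 5000 UMIs and *Crx* and 0.63 when the rule was applied to thinned cells, each resting on 1 gene. It had no gene to give a value without cycling cells or at 50 CPM. The S phase median of 0.23 changed sign to −0.15 with *Crx*, −0.20 with 5000 UMIs and *Crx*, −0.12 with 3 *Otx2* UMIs and −0.061 when the rule was applied to thinned cells. The neurogenic median of 0.40 kept its sign in all alternatives but 1.

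That was the alternative without cells with 2 or more genes of other cell types, which left 8 members and 115 comparison cells, since those lists hold genes that cones use. There the share without *Gngt2* was 5.755%, 1972 genes were higher and 1016 lower, the neurogenic median was −0.28, and the multipotent, mitosis, S phase and all-gene medians were 5.24, 5.43, 1.86 and 0.40. With 8 members, single UMIs and the 0.5 UMIs added weigh far more than over all 132 members. The number of genes tested also differed, so that these counts cannot be set beside those over all members. The share of 3.61% was 9.08% from 5000 UMIs, 7.55% with 5000 UMIs and *Crx*, 2.91% with 3 *Otx2* UMIs and 8.60% when the rule was applied to thinned cells, which made 295 members. The counts of 100 genes higher and 189 lower, 1.6% and 3.02% of 6253 tested, were 47 and 52 in the last case. The count of genes lower was 340 from 5000 UMIs and 316 (5.25% of 6019) with 5000 UMIs and *Crx*, and that of genes higher was 57 when standardised. With other filters or thresholds they were 215 and 365 (10 CPM), 36 and 69 (50 CPM), 4451 and 1216 (no filter) and 290 and 759 of 6253 (1.5-fold). The number of genes tested changed with the filter, so that counts under unlike filters cannot be compared. With no filter, a gene at 0 UMIs in members could be called higher. The 0.5 UMIs added weigh more among the members' 667851 UMIs than among the 13209587 of the comparison cells. The counts and the median with no filter are in part set by this. The all-gene median of −0.094 was −0.038 without cycling cells, −0.078 with *Crx*, −0.056 from 5000 UMIs, −0.046 with 5000 UMIs and *Crx*, −0.0081 in thinned cells, −0.041 when the rule was applied to thinned cells and for per-cell means, −0.060 when standardised, −0.025 with TMM, −0.053 at 50 CPM and −0.070 with a pseudocount of 1, and was reversed at 0.11 with no filter. Apart from the effect of cell and gene numbers, the cause of these shifts was not tested. The members' 667851 UMIs limit genes at few UMIs, for which a ratio spans a wide interval.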
